A study of Mus musculus with 4 samples.

Results

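Naive CD4 T cells are helper T cells that have left the thymus and have not yet met their antigen. Among the 4136 barcodes kept from 4 single-cell libraries of mouse adipose tissue (AT), 357 were counted as naive CD4 T cells. They were chosen by their own transcript counts. A barcode was kept with at least 200 genes detected and at most 25% of its UMIs (unique molecular identifiers, each standing for 1 captured transcript) from mitochondrial genes. A kept barcode was a member when the CD3 genes Cd3e, Cd3d and Cd3g summed to at least 2 UMIs, Cd4 had at least 1 UMI, Lef1 and Ccr7 summed to at least 2 UMIs, and Cd8a, Cd8b1, Foxp3 and Cd79a had 0.

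The libraries were SC (subcutaneous) and IP (intraperitoneal) AT of WT mice (Tie2e-cre; TERT+/+; mTmG) and KO mice (Tie2e-cre; TERTfl/fl; mTmG), with 1 library for each of the 4 combinations. All mice were males aged 7 months and had been fed a high-fat diet for 5 months. No library came from mice without that diet. Tert encodes the catalytic subunit of telomerase, and every mouse carried Tie2e-cre, whose promoter the study uses to drive Cre in endothelial cells (EC), together with the mTmG reporter, which changes from membrane tdTomato to membrane GFP in a cell lineage that has had active Cre. The labels do not give the number of mice behind a library or a background strain, and they name both cells and nuclei as the input. With 1 library per group, no test compares genotypes or depots, and the intervals below (95%, exact binomial unless named otherwise) cover counting error only.

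Circulating naive CD4 T cells move between blood and lymph nodes, which they enter with the help of the chemokine receptor Ccr7, and leave through the sphingosine receptor S1pr1. The transcription factors Lef1 and Tcf7 keep the naive programme, Klf2, Foxp1, Bach2 and Satb1 are linked to quiescence and homing, and the interleukin 7 receptor Il7r supports survival without antigen. After activation, effector and memory cells raise Cd44, S100a4 and tissue chemokine receptors such as Cxcr3 and Cxcr6. Most resident T cells of adipose tissue are of the effector and memory kind, and the inguinal fat pad also contains a lymph node.

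The 4 libraries held 700 to 2115 barcodes, 521 to 1969 of them kept, with library totals of 10015201 to 15533961 UMIs. The KO SC and WT IP libraries shared 93 barcode sequences, where other pairs of libraries shared 0 or 1. The shared barcodes had a median of 601 UMIs in KO SC and 35392 in WT IP, and in 92 of 93 the KO SC profile was most like the profile of the same barcode in WT IP. None of the 93 was a naive CD4 T cell, so the members' transcripts were the same without them. The doublet caller Scrublet marked 23 of the 4136 kept barcodes, 0.556% of them, and 2 of the 357 members.

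The WT SC library held 93 members and KO SC 243, whereas WT IP held 10 and KO IP 11. They made up 9.58% (7.80 to 11.6) of kept barcodes in WT SC and 12.3% (10.9 to 13.9) in KO SC, against 1.48% (0.713 to 2.71) in WT IP and 2.11% (1.06 to 3.75) in KO IP. The IP share was lower than the SC share in both genotypes, with log2 ratios of -2.69 (-3.62 to -1.76) in WT and -2.55 (-3.41 to -1.69) in KO. KO exceeded WT by a log2 ratio of 0.37 (0.04 to 0.69) in SC and 0.51 (-0.71 to 1.74) in IP, and the second interval spans 0.

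Counted among T cells only, the SC libraries were nearly equal. Naive CD4 T cells were 20.2% of T cells (16.6 to 24.1) in WT SC and 20.7% (18.4 to 23.1) in KO SC, a log2 ratio of 0.04 (-0.27 to 0.34). In IP they were 7.81% (3.81 to 13.9) of T cells in WT and 8.94% (4.55 to 15.4) in KO, so the IP share was lower among T cells as well. When the gate asked for only 1 UMI of Lef1 and Ccr7 together, the interval of the SC ratio over kept barcodes reached 0, with a value of 0.30 (-0.01 to 0.62). Without the 93 shared barcodes that ratio was 0.44 (0.11 to 0.76).

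The Lef1 and Ccr7 threshold cut very different distributions in the depots. In WT SC, 84.5% of CD4 T cells without Foxp3 were members and 8.18% had no UMI of either gene. In KO SC 84.7% were members and 11.8% were at 0. In WT IP 29.4% were members and 64.7% were at 0, and in KO IP the shares were 37.9% and 55.2%. Members held a median of 16 UMIs of Lef1 and Ccr7 together in WT SC and 14 in KO SC, but 4 in each IP library, with highest values of 58 (WT SC), 61 (KO SC), 19 (WT IP) and 14 (KO IP). Just inside the threshold, with 2 UMIs, were 3 WT SC cells, 7 KO SC cells and 2 cells of each IP library. Just outside it, with 1 UMI, were 8 WT SC cells, 10 KO SC cells and again 2 of each IP library. In SC the threshold therefore fell in a thin stretch between the main body of cells and those without either transcript, whereas in IP most members lay near it.

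**Figure D1:**
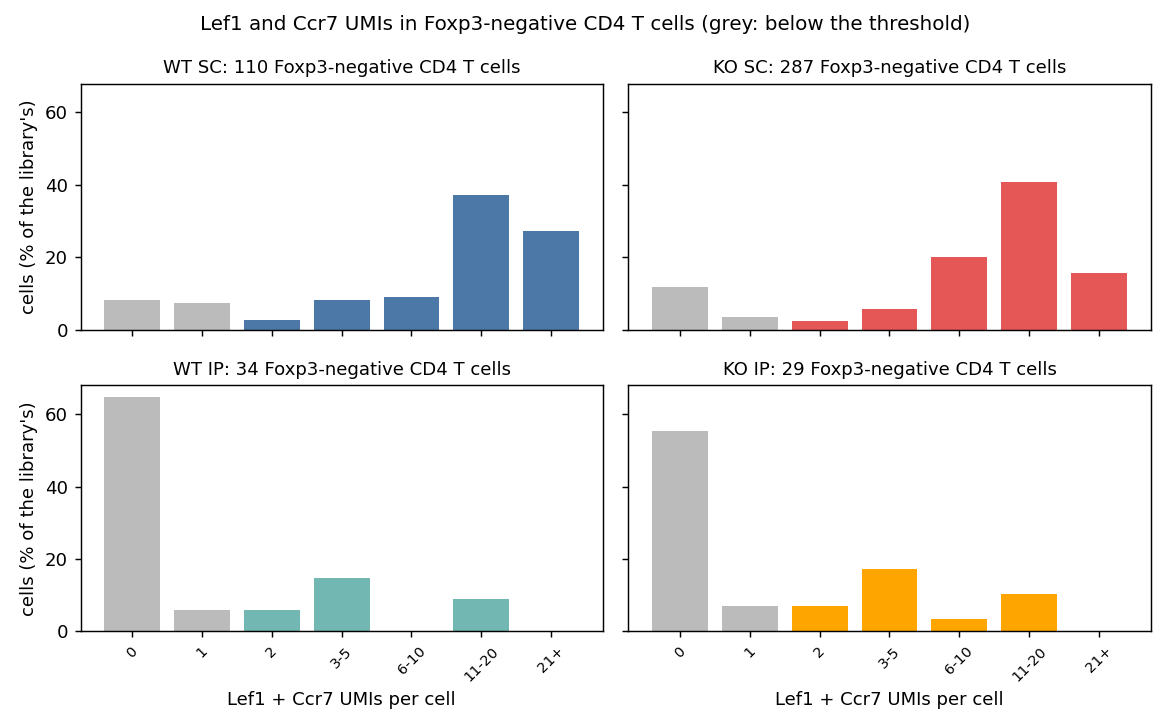
CD4 T cells without Foxp3 or CD8 transcript by the summed UMIs of Lef1 and Ccr7 in a cell (horizontal axis, binned), as a percent of such cells in each library (vertical axis, 1 panel per library, grey bars below the threshold). The SC cells lie mostly at 6 UMIs and above, and the IP cells mostly at 0, where 64.7% (WT) and 55.2% (KO) of them stand.

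Both genes of the threshold contributed. Lef1 was at 0 in 3 of 93 members in WT SC and in 5 of 243 in KO SC, while Ccr7 was at 0 in 14 and 32. In IP, Ccr7 was at 0 in 6 of 10 WT members and in 4 of 11 KO members, so the IP members rested mainly on Lef1. The 2 genes summed to 1823 CPM (the UMIs of a gene scaled to 1e6 UMIs of all members of a library) in WT SC and 1944 in KO SC, against 958 in WT IP and 598 in KO IP. These levels describe the choice of cells and are given without a test.

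Across WT SC, KO SC, WT IP and KO IP, the order used for each run of 4 values below, members had medians of 7772, 6721, 7320.5 and 9166 UMIs per cell. Median genes detected per cell were 2401, 2118, 2461.5 and 2723. Mitochondrial UMIs had medians of 2.67% to 3.77%. Ribosomal protein transcripts took 31.1% and 32.7% of UMIs in the SC libraries and 21.6% and 22.4% in the IP libraries. In the SC libraries 5 members (2 WT, 3 KO) held more than 3 times the median UMIs of their library. Several of them carried cell cycle transcripts and 1 in KO SC carried collagen transcripts. Several SC ratios that rest on them are therefore given with and without these 5 cells. Levels in CPM include them unless stated otherwise.

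A gate on single UMIs of Cd4 misses cells whose Cd4 transcripts were not captured. T cells that passed the Lef1 and Ccr7 threshold and lacked Foxp3 and Cd79a numbered 354 in WT SC and 925 in KO SC. Of these, 26.3% in each library had Cd4 UMIs only, the members, and 48.9% and 51.6% had CD8 UMIs only. Neither coreceptor was detected in 22.3% (79 cells) of WT SC and 20.4% (189 cells) of KO SC. Cd40lg, which encodes the CD40 ligand by which helper T cells signal to B cells and which the gate did not use, was detected in 43.0% of members in WT SC and 37.4% in KO SC. It was detected in 38.0% (27.3 to 49.6) of the cells with neither coreceptor in WT SC and 31.7% (25.2 to 38.9) in KO SC. In cells with CD8 UMIs only the shares were 2.31% (0.634 to 5.81) and 3.14% (1.77 to 5.13), and 0 of 297 and 0 of 456 B cells had a Cd40lg UMI. In both SC libraries the interval for cells with neither coreceptor included the members' share, and that for cells with CD8 UMIs did not. In IP the cells with neither coreceptor had a Cd40lg UMI in 1 of 19 in WT, 5.26% (0.133 to 26.0), and in 26.7% (7.79 to 55.1) in KO, and there the members' shares, 5 of 10 and 8 of 11 cells, lay above these intervals.

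Genes of the naive programme outside the gate were detected in SC members. Satb1 had 1581 CPM in members of WT SC and 2098 in KO SC, Bach2 1091 and 1371, Foxp1 1075 and 1086, and Klf2 894 and 648. Il7r had 419 and 541 CPM, Tcf7 391 and 326, and S1pr1 304 and 271. Transcripts of the T cell receptor constant gene Trac stood at 533 and 419 CPM.

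A second set of genes that published single-cell surveys report in naive T cells was also detected in SC. Igfbp4, an insulin-like growth factor binding protein, had 225 CPM in WT SC and 190 in KO SC. Actn1, an actin crosslinker, had 148 and 98.0 CPM, Nsg2 134 and 85.7, and Dapl1 179 and 62.1. Effector and memory genes were also detected, with Crip1 at 242 and 283 CPM, Cd44 at 85.4 and 106, S100a4 at 91.0 and 114, S100a6 at 42.2 and 119, Cxcr3 at 9.99 and 8.03, and Cxcr6 at 2.22 and 20.9.

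IP members went against the label. S100a4, a calcium-binding protein of memory T cells, stood at 751 CPM in IP members of WT and 976 in those of KO, and S100a6 at 945 and 844. Crip1 stood at 1734 and 1794 CPM, Itgb1, the integrin beta 1 chain, at 699 and 466, and Cd44 at 349 and 361. S100a4 was detected in 7 of 10 and 8 of 11 IP members, 70.0% and 72.7%, against 4.30% and 5.35% of SC members. In CD4 T cells without Lef1 or Ccr7 the S100a4 shares were 88.9%, 88.2%, 86.4% and 75.0%. Igfbp4 stood at 38.8 and 26.4 CPM in IP members, and Dapl1 had no UMI in either IP library. The IP members are therefore called here by their gate, as CD4 T cells with Lef1 or Ccr7.

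**Figure D2:**
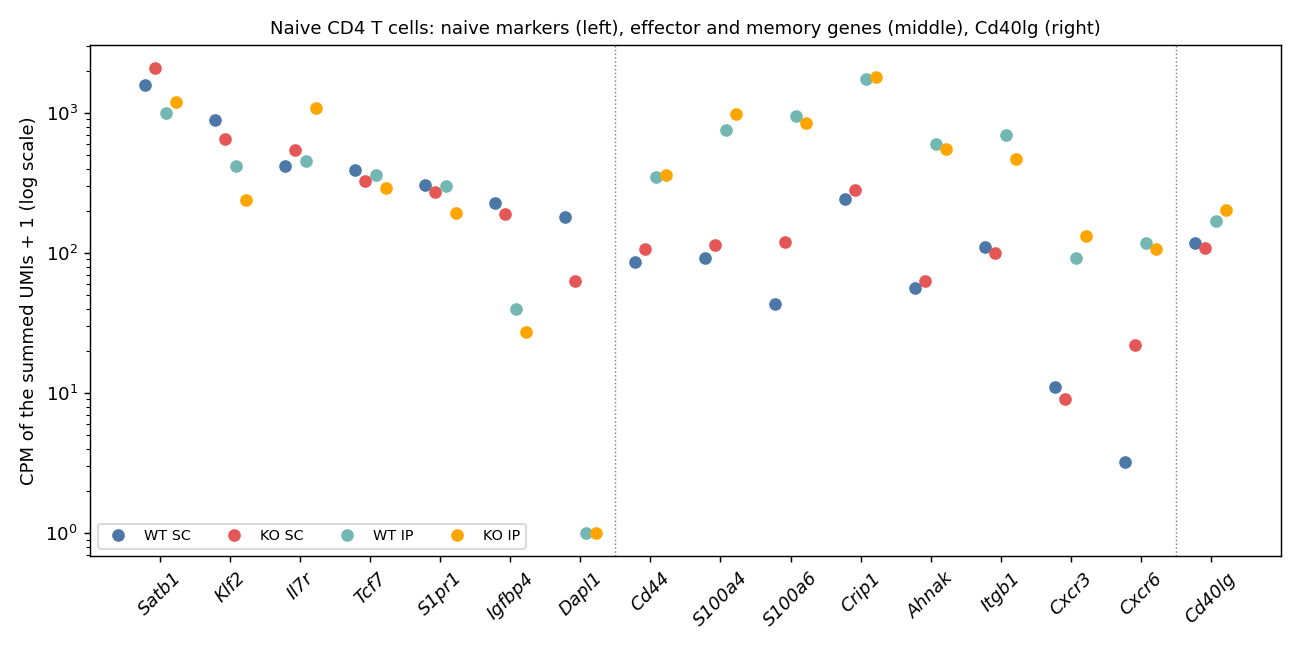
Levels of named genes in the members of each library, as CPM of the summed UMIs plus 1 on a log axis, with 1 point per library and no error bars. Satb1 lies between 996 and 2098 CPM and Tcf7 between 290 and 391, while S100a4, S100a6 and Cd44 sit higher in both IP libraries than in both SC libraries.

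Naive CD8 T cells, gated in the same way with CD8 UMIs in place of Cd4, gave the first comparison. In IP this name, too, stands for the gate only. Ccl5 in these cells stood at 2646.5 and 2688.9 CPM in WT IP and KO IP, against 390 and 498 in SC. Their median UMIs of Lef1 and Ccr7 were 9 and 4.5 in IP, against 16 and 14. The part of effector CD8 T cells in the differences below was not tested. Naive CD4 and naive CD8 T cells were summed within each of the 4 libraries and compared by edgeR's quasi-likelihood test with the library as a block. In KO IP, 1 of the 12 naive CD8 T cells held 107406 of their 201942 UMIs, so that sum rests largely on 1 cell. The IP members, called by their gate above, entered this test together with those of SC. Of 5894 genes tested by edgeR, 59 (1.0%) were higher in members and 43 (0.730%) were lower at a Benjamini-Hochberg adjusted p below 0.05. At an unadjusted p below 0.05 the counts were 253 and 266. Genes of helper T cells were higher and genes of cytotoxic cells were lower, and the lists of quiescence, homing and survival genes held no called gene. Libraries are the only replicates here and differ in genotype and depot. With the library as a block, p measures how the difference between the populations varies over the libraries.

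Cd40lg gave 117, 108, 168 and 202 CPM in members, against 3.56, 4.60, 0 and 0 in naive CD8 T cells. The groups did not overlap, and the log2 difference was 4.83 (SE 0.37, edgeR adjusted p = 7.615e-05). Tnfrsf4, which encodes the costimulatory receptor OX40, gave 253, 122, 90.6 and 167 CPM against 3.05, 1.31, 0 and 64.4, a difference of 4.97 (SE 0.67, edgeR adjusted p = 0.00283). These Tnfrsf4 levels include the deep cells, and its ratio of KO to WT in SC reversed without them. Izumo1r, the folate receptor 4 of CD4 T cells, was higher by 1.83 (SE 0.26, edgeR adjusted p = 0.00385). Cd40lg, Izumo1r and Tnfsf8 were the 3 of 5 tested CD4 lineage genes called higher, and the median difference of that list was 1.83 beside -0.01 over all genes tested.

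Costimulation and signalling genes followed. Cd28, the receptor for CD80 and CD86, gave 507, 501, 647 and 721 CPM against 267, 264, 337 and 262 in naive CD8 T cells. Every member value lay above every CD8 value, with a log2 difference of 0.94 (SE 0.19, edgeR adjusted p = 0.0280). Cd5, a receptor that dampens T cell receptor signals, gave 292, 102, 259 and 167 CPM against 92.1, 52.8, 129 and 84.2, higher in members within every library, by 1.09 (SE 0.21, edgeR adjusted p = 0.0235). These were the 2 of 20 tested T cell receptor and signalling genes that were called, and the list had a median difference of 0.16. Icos was higher by 1.53, Cd44 by 1.31, and the oxygen-responsive factor Hif1a by 1.46, all called.

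Among all called genes with a mean of at least 50 CPM, Tnfrsf4 and Cd40lg had the largest differences in favour of members. After them came Tbc1d4, Mdfic, Maf, Trat1, Tnfsf8, Gsn, Tmem64 and Capg. Tbc1d4, a GTPase-activating protein of glucose transporter traffic, gave 171, 130, 168 and 264 CPM against 2.55, 9.64, 31.3 and 114. Maf, a transcription factor of helper subsets, gave 61.0, 104, 285 and 220 CPM against 6.11, 8.76, 47.0 and 109. Mdfic gave 23.3, 10.7, 246 and 193.5 CPM against 2.04, 1.31, 31.3 and 39.6, and members' levels of both genes were highest in IP. Tnfsf8, the CD30 ligand, gave 107, 137, 64.7 and 246 CPM against 27.0, 16.6, 19.6 and 4.95. Tnfsf8 and Tbc1d4 values did not overlap between the populations, whereas Maf in naive CD8 T cells of KO IP lay above its level in SC members.

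Gsn is a stromal gene in AT, and 638 of its 682 UMIs in KO SC members came from 1 cell. Its difference of 2.37 therefore stands beside a stromal transcript load that differed between libraries, given below.

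Genes of CD8 and cytotoxic T cells lay lower in members. Bend4 gave 4.44, 1.07, 0 and 0 CPM against 183, 176, 164 and 74.3 in naive CD8 T cells, a log2 difference of -6.45 (SE 0.42, edgeR adjusted p = 2.311e-05). Klrd1, the CD94 lectin receptor, gave 22.2, 22.0, 38.8 and 26.4 CPM against 204, 264, 247 and 99.0, a difference of -3.34 (SE 0.29, edgeR adjusted p = 0.000134). Neither gene overlapped between the populations. Ly6c2 gave 0, 0.535, 104 and 35.2 CPM against 207, 232, 239 and 238, so it was nearly absent from SC members and low in IP members. Ccl5, Fam241a, Pakap, Ctsw, Pde2a, Serpinb6b and Sidt1 completed the 10 lowest.

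Of 9 tested CD8 and cytotoxic genes, 6 were called lower, with a median difference of -2.64, among them Eomes, Runx3, Ctsw and Cd7. Nkg7, a granule protein, gave 2.22 and 2.14 CPM in SC members and 466 and 229 in IP members, against 416, 300, 771 and 768 in naive CD8 T cells, a difference of -3.58 that was not called (edgeR adjusted p = 0.0733). In SC members Nkg7 was close to absent, and in IP members it lay nearer to the CD8 level.

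This test called 1.0% of all genes tested higher and 0.730% lower. At those shares a count of 0 in a short list says little about the list. Satb1 differed by 0.33 (SE 0.22), Klf2 by 0.31 (SE 0.21), Tcf7 by 0.51 (SE 0.23) and Bach2 by 0.21 (SE 0.24), and none was called. None of 14 quiescence, 10 homing, 16 survival, 12 glycolysis, 13 mitochondrial respiration, 12 senescence or 10 cell cycle genes was called. Within each library, counting intervals lay above 0 for 7 of 14, 9 of 15, 2 of 12 and 8 of 11 quiescence genes. They lay below 0 for 1, 1, 1 and 0. The cell cycle list had a median difference of 0.87, with 3 genes higher at an unadjusted p below 0.05. From the other lists, 1 of 14 reported naive genes (Ly6c1) and 2 of 17 effector and memory genes (Cd44 and Maf) were called higher, as were 1 of 19 activation genes (Icos), 2 of 6 regulatory T cell genes (Tnfrsf4 and Capg), 1 of 14 interferon-stimulated genes (Ly6a) and 1 of 14 hypoxia genes (Hif1a), and 1 activation gene (Nr4a2) was called lower.

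**Figure D3:**
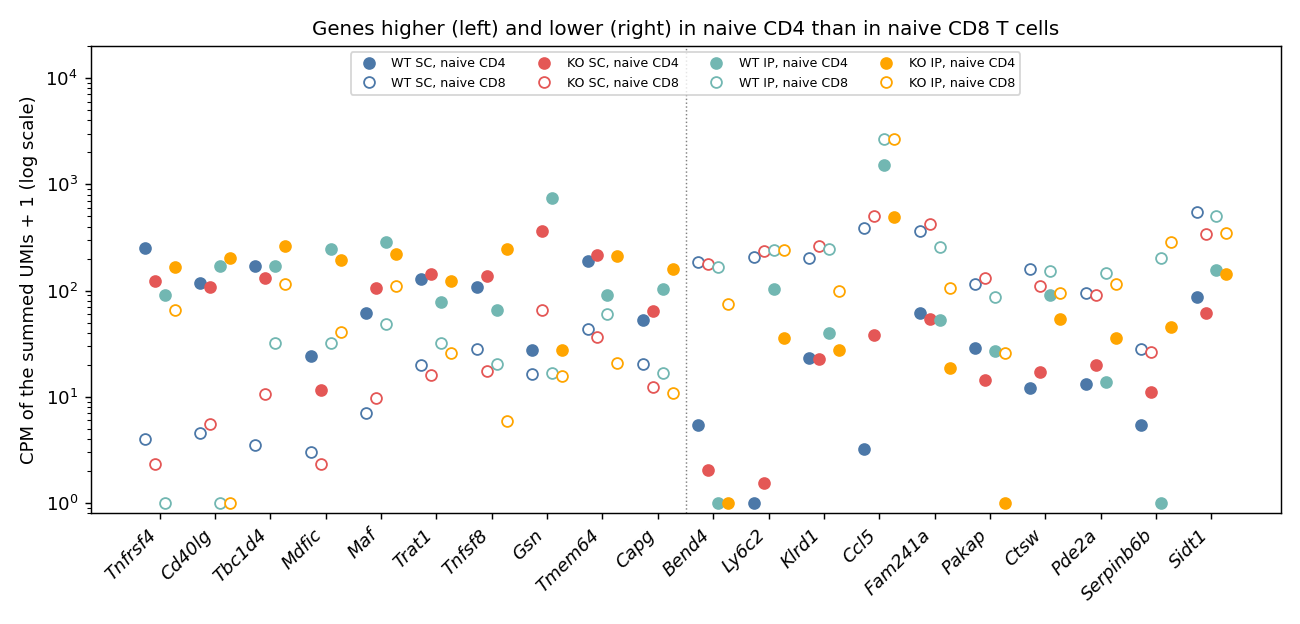
Levels of the 10 ranked genes higher in members than in naive CD8 T cells (left of the dotted line) and the 10 lower (right). They are CPM of the summed UMIs plus 1 on a log axis. Each library has 1 filled point for members (naive CD4 in the key) and 1 open point for naive CD8 T cells. Cd40lg lies above 100 CPM in all 4 filled points and below 5 in all open points, and Bend4 lies below 5 in all filled points and above 70 in all open ones.

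The size of this list depended on which libraries entered. Without WT SC, KO SC, WT IP or KO IP, the called genes numbered 38 higher and 27 lower, 22 and 20, 44 and 33, or 289 and 335. With the SC libraries alone they numbered 564 and 645, and without cells of more than 3 times the median UMIs they numbered 115 and 95.

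CD4 T cells without Lef1 or Ccr7 transcript (81 cells) share the lineage of the members and differ by the gate. With at least 10 cells of both kinds needed in a library, the comparison used KO SC, WT IP and KO IP. Of 2513 genes tested by edgeR, 0 were called higher and 0 lower (percent called 0), 98 and 154 had an unadjusted p below 0.05, and DESeq2 called 6 and 12. The lowest edgeR adjusted p was 0.085, among others for Satb1, higher in members by 2.17 (SE 0.34), and for Bach2, higher by 1.72. Satb1 gave 2098, 996 and 1205 CPM in members of KO SC, WT IP and KO IP against 840, 104 and 266 in the cells without Lef1 or Ccr7. Bach2 gave 1371, 1126 and 1557 CPM against 447, 450 and 332, and neither gene overlapped between the populations.

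Of 19 tested effector and memory genes, 11 were lower in members at an unadjusted p below 0.05, with a list median of -1.34 beside -0.01 over all genes. S100a4 gave 114, 751 and 976 CPM in members against 1554, 1983 and 2184, a difference of -2.11 with an edgeR adjusted p of 0.19. Within KO SC alone, 243 members stood against 34 cells. There 10.1% of tested genes were at least 2-fold higher and 10.2% at least 2-fold lower in members. The 18 of 27 effector and memory genes with enough UMIs were all at least 2-fold lower. Genes low in members could reach the 50 UMIs needed only with those of the other cells. The filter thus partly fixed this count, which supports nothing. S100a4, with 212 UMIs in KO SC members, passed the filter through members alone. Of 13 tested reported naive genes 10 were at least 2-fold higher, with a median of 1.68, and of 13 quiescence genes 5 were, namely Bach2, Foxp1, Klf2, Tcf7 and Satb1, although the median of that list was -0.02, with 6 intervals above 0 and 5 below. No test stands behind counts within 1 library.

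Regulatory T cells, gated by Foxp3, numbered 16 in WT SC and 30 in KO SC, with 0 and 1 in IP. Only the SC libraries could be used, and no test was made. Effector and memory genes were lower in members than in Foxp3 cells in both, with 13 of 14 tested genes at least 2-fold lower in WT SC (median -3.02) and 12 of 14 in KO SC (median -1.99). At that fold, 5.52% of all tested genes were higher and 8.08% lower in WT SC, and 8.66% higher and 11% lower in KO SC. Genes low in members could reach the 50 UMIs needed only with those of the Foxp3 cells. The filter thus partly fixed the counts of genes lower in members, here and for the lists that follow, and they support nothing. Regulatory T cell genes were at least 2-fold lower in 6 of 7 and 8 of 8. Ikzf2, which encodes Helios, gave 300 and 129 CPM in members against 1256 and 2132 in Foxp3 cells, and the inhibitory receptor Ctla4 gave 532 and 469 against 1695 and 1727.

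Cell cycle genes were also lower than in Foxp3 cells, 11 of 14 at least 2-fold in WT SC and 11 of 13 in KO SC. B cell markers were lower in members as well, in 3 of 3 tested (median -5.92) and 2 of 2 (median -2.14), and the list summed to 1894 and 411 CPM in Foxp3 cells against 109 and 105 in members. Of the 16 Foxp3 cells of WT SC 5 held over 3 times their median UMIs, as did 2 of 30 in KO SC, and the part of these cells was not tested. Reported naive genes were higher in 6 of 11 and 7 of 13, and quiescence genes in 3 of 13 (Klf2, Tcf7 and Satb1) and 7 of 13.

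The targeted gene could not be followed in these cells. Tert had no UMI in any of the 357 members, in either genotype, and in the other populations examined it was limited to 1 UMI in each of 4 cells (1 Foxp3 cell and 1 B cell of WT SC, 2 B cells of KO SC). The libraries' genotype is therefore unchecked in the members.

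The reporter was detected in many members. The GFP coding feature (GFPcds) had a UMI in 60 of 93 members in WT SC, 64.5% (53.9 to 74.2), and in 101 of 243 in KO SC, 41.6% (35.3 to 48.0). In IP it had a UMI in 7 of 10 members of WT, 70.0% (34.8 to 93.3), and in 4 of 11 of KO, 36.4% (10.9 to 69.2). Thinned to 2000 UMIs per cell the shares were 59.1%, 37.4%, 70.0% and 27.3%, so the difference in SC was about as wide at equal depth. The levels were 1408, 774, 1398 and 493 CPM.

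For GFPcds, naive CD8 T cells had shares of 69.9%, 39.2%, 59.1% and 16.7%, and B cells 42.4%, 24.6%, 19.0% and 17.4%. These populations come from the same libraries as the members. Tdtomato was detected in 5.38%, 8.23%, 10.0% and 9.09% of members. The endothelial genes Cdh5, Tie1 and Egfl7 had no UMI in any member, with or without GFPcds.

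KO and WT members of SC were compared as ratios of summed UMIs. Of 5722 genes with at least 50 UMIs in both together, 85 (1.49%) were at least 2-fold higher in KO and 140 (2.45%) at least 2-fold lower, with a median log2 ratio of -0.08, and with median-of-ratios scaling the counts were 99 and 96. Without the 5 cells of highest UMIs, 54 and 75 of 5183 genes passed the fold, of which 84 also passed with all members. The heat shock genes Hspa1a and Hspa1b, the transcription factor Jun, Cd5 and Dapl1 were lower in KO, and the class I gene H2-D1 was higher. The naive programme was close to equal.

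Hspa1a and Hspa1b, which encode near-identical inducible HSP70 chaperones whose reads can be split between them, led the genes lower in KO once the 5 deep cells were left out. Hspa1a gave 960, 12.3, 104 and 114 CPM. A UMI was found in 29 of 93 members of WT SC, 31.2%, and in 18 of 243 of KO SC, 7.41%, or in 25.8% and 2.06% after thinning. The log2 ratio was -6.25 (-6.95 to -5.69) and, without the 5 deep cells, -6.51. Hspa1b gave 515 CPM in WT SC and 16.6 in KO SC, with a ratio of -4.93 (-5.53 to -4.43). The WT SC library stood above the other 3 for both genes.

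Other populations of these SC libraries gave, for Hspa1a and Hspa1b, -3.49 and -3.70 in naive CD8 T cells, -4.86 and -2.54 in Foxp3 cells and -3.99 and -3.53 in B cells. In IP members the ratios were 0.11 (-1.24 to 1.62) and 0.80 (-0.85 to 3.01), and in IP B cells -1.94 and -1.61. The cause of these differences was not tested.

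Jun, an AP-1 factor that responds to stimulation, gave 240 CPM in WT SC and 118 in KO SC. Its log2 ratio was -1.02 with all members and -2.16 (-2.51 to -1.82) without the deep cells. In KO SC, 112 of its 221 UMIs came from 1 cell. Among members with a GFPcds UMI the ratio was 0.11 and among members without one -2.50, a split that kept the deep cells. Cd5 gave 292 CPM in WT SC and 102 in KO SC, with a ratio of -1.52 (-1.80 to -1.25), and of -1.44 and -1.59 in members with and without GFPcds UMIs. In naive CD8 T cells the Cd5 ratio was -0.80 (-1.09 to -0.52) and in Foxp3 cells -0.82 (-1.25 to -0.40), while in IP members it was -0.63 (-1.62 to 0.35). Dapl1 gave 179 CPM (36 cells) in WT SC and 62.1 (47 cells) in KO SC, a ratio of -1.52 (-1.88 to -1.17), and of -1.62 and -1.58 with and without GFPcds UMIs, against -0.30 in naive CD8 T cells. Cd5 and Dapl1 were lower in KO in both groups of members, but both groups come from the same libraries, so the split adds no replicate.

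Genes of the naive programme were near equality in SC. The ratio was 0.41 (0.32 to 0.50) for Satb1, -0.47 (-0.60 to -0.34) for Klf2, -0.26 for Tcf7, -0.17 for S1pr1 and 0.37 for Il7r. Of 14 tested quiescence genes only Id3 passed the fold, lower in KO, and of 13 reported naive genes only Dapl1. No gene of the homing (10 tested, median -0.19), survival (16, median 0.20) or CD4 lineage (5) lists passed. Over all tested genes the shares past the fold were 1.49% higher and 2.45% lower, so these counts say little about short lists. T cell receptor and signalling genes had 3 of 20 lower (Themis, Lcp2 and Cd5), with a median of -0.25. For Themis 343 of 616 WT UMIs came from 1 cell, and its ratio of -1.25 became -0.21 without the deep cells and 0.12 in members without GFPcds.

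Counts past the fold in short lists of metabolism and ageing genes stand beside 1.49% higher and 2.45% lower over all tested genes. Intervals lay above 0 for 3 and below 0 for 7 of 13 mitochondrial respiration genes, and for 0 and 6 of 12 glycolysis genes. For hypoxia genes they were 2 and 3 of 13, and for senescence genes 0 and 2 of 11. Over all 5722 genes, 490 lay above 0 and 862 below. Mitochondrial respiration genes had a median of -0.10 with 0 of 13 past the fold, hypoxia genes -0.22 with 0 of 13, and senescence genes -0.20 with 0 of 11. Glycolysis genes had a median of -0.32 with 1 of 12 lower, the enolase Eno1, whose ratio was -1.58 without the deep cells, and -1.06 in naive CD8 T cells. Cdkn1a, the p21 cell cycle inhibitor, was at 3.33 CPM in WT SC and 16.1 in KO SC, and Cdkn2a had a level of 0 in WT SC and 1.07 in KO SC.

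Interferon-stimulated genes had 1 of 11 lower (Gbp4). Effector and memory genes had 1 of 14 higher, S100a6, with a median of 0.31. Of the 222 S100a6 UMIs in KO SC members 122 came from 1 cell, and without the deep cells its ratio was 0.02 (-0.53 to 0.62). Activation genes had 4 of 20 lower, which were Jun, Tnfrsf9, Hspa1a and Hspa1b.

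Several lists moved with a few cells. All 7 tested stromal genes were at least 2-fold higher in KO SC, with a median of 5.79 (5.52 with genes at 0 set at the floor of 3 UMIs), yet 441 of 442 Col3a1 UMIs, 286 of 287 Col1a2 UMIs and 240 of 247 Dcn UMIs of KO SC members came from 1 cell. Without the deep cells the list median was -1.18. Cell cycle genes had 6 of 14 lower and a median of -0.92, which became -0.03 without the deep cells. Regulatory T cell genes had 3 of 7 lower and a median of -0.79, which became -0.16. These 3 list medians thus rested on the 5 deep cells.

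Without the 5 deep cells, the 10 genes whose intervals lay farthest above 0 in KO SC were Ccl5, Btbd9, Dnah8, Pde8a, Ern1, Glo1, Maf, H2-D1, Map2k3 and Tnfsf8. Btbd9 had a ratio of 1.38 (1.13 to 1.65), Pde8a, a cyclic AMP phosphodiesterase, 1.72, and Ern1, the IRE1 sensor of endoplasmic reticulum stress, 1.71. Maf was at 1.46 and Tnfsf8 at 1.26. Ccl5 rested on 1 cell, which held 66 of the 70 UMIs of KO SC, against 2 UMIs in WT SC. The 10 farthest below 0 were Hspa1a, Hspa1b, Jun, Kif23, Rad51b, Id3, Sh3rf1, Dapl1, Cd5 and Eno1. Kif23, a kinesin of cell division, had a ratio of -2.54, and Id3, an inhibitor of E proteins that has a part in naive T cell maintenance, -2.30. Another 247 tested genes (ribosomal protein, mitochondrial, haemoglobin, antigen receptor, sex-linked control and unnamed transcripts) were left out of this ranking, 7 of them at least 2-fold higher and 5 lower.

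**Figure D4:**
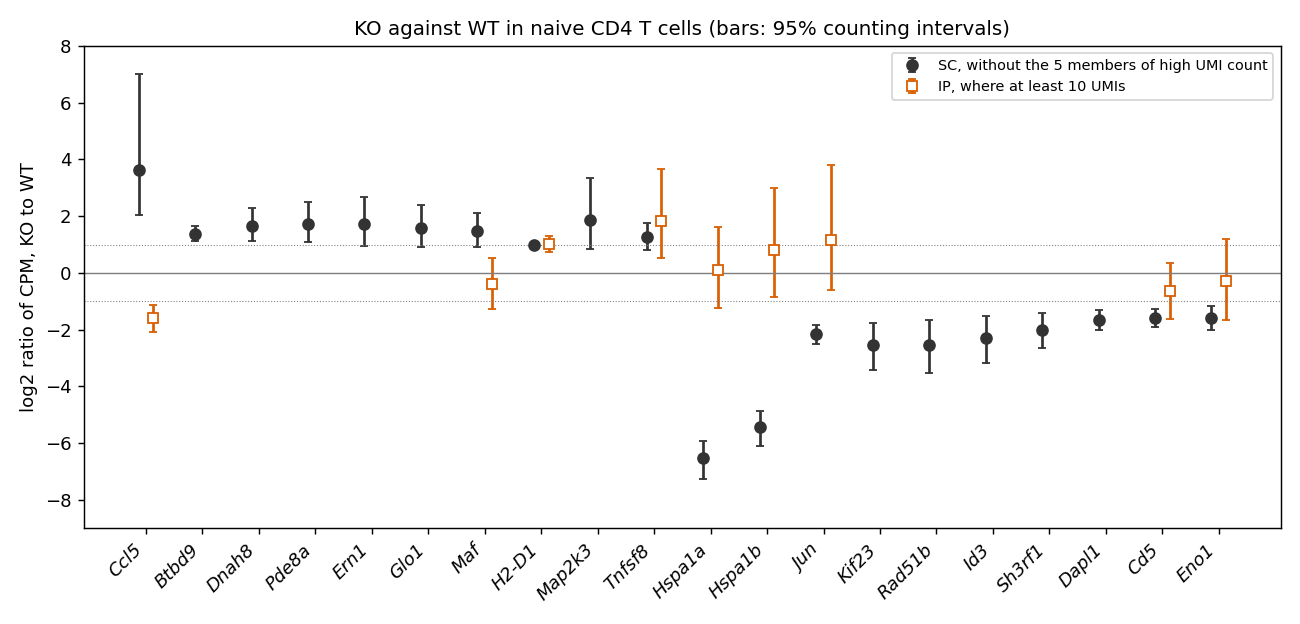
Log2 ratio of KO to WT CPM in the members (vertical axis), with 95% counting intervals, for the genes ranked in SC without the 5 cells of highest UMIs (filled circles) and the same genes in IP where at least 10 UMIs were counted (open squares). Dotted lines mark a 2-fold difference, Hspa1a and Hspa1b stand lowest in SC and near or above 0 in IP, and H2-D1 has nearly the same ratio in both depots.

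Several ranked genes lie close together on chromosome 17, and the values given next were chosen after the ranking was seen. Of the 10 genes ranked higher, 4 lie on chromosome 17, as do Hspa1a and Hspa1b among the 10 ranked lower, where the chromosome holds 252 of the 5183 genes tested without the deep cells (4.86%). Btbd9 (GRCm38 chromosome 17, 30215524 to 30576488), Glo1 (30584936 to 30626871) and Dnah8 (30624354 to 30877365) are neighbours, and Glo1 and Dnah8 overlap on opposite strands. H2-K1 (33996017 to 34000347), Hspa1b (34956436 to 34959238), Hspa1a (34969190 to 34972156), H2-D1 (35262730 to 35267499) and H2-Q7 (35439155 to 35443773) lie in the major histocompatibility region. Class I genes are alike in sequence, so their reads can be split between them.

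In SC members the ratio was 1.01 (0.92 to 1.10) for H2-D1, with 2705 CPM in KO and 1354 in WT without the deep cells, while H2-K1 stood at -0.56 (-0.66 to -0.46) and H2-Q7 at -1.14 (-1.36 to -0.92). Across 10 comparisons of KO with WT, made of members, other lymphocyte populations and all other kept barcodes in each depot, H2-D1 ranged from 0.66 to 1.07 and Btbd9 from 0.28 to 1.46. H2-K1 ranged from -0.56 to -0.09 and H2-Q7 from -1.71 to -0.42. All 10 comparisons rest on the same 4 libraries. Dnah8 ranged from -0.20 to 2.93 and Glo1 from -0.35 to 2.43. The cause was not tested, and the mice's background strain was not given in the sources used here.

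**Figure D5:**
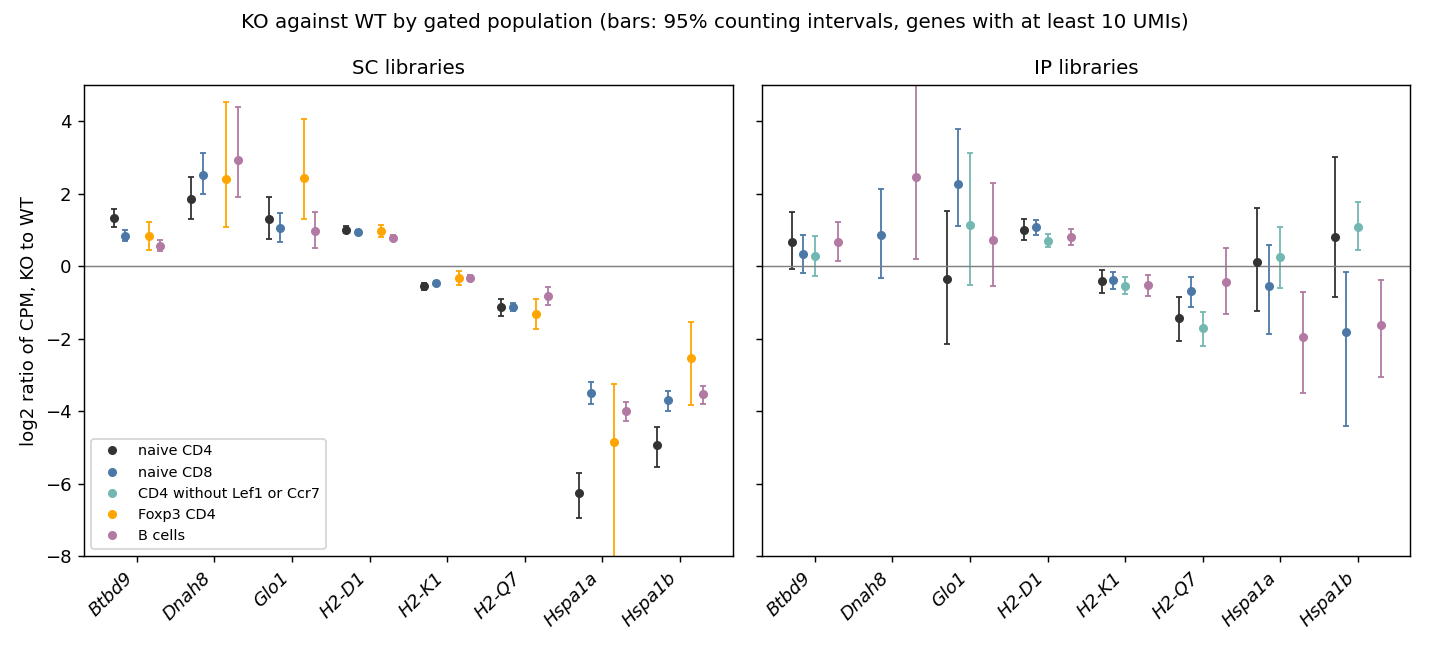
Log2 ratio of KO to WT CPM (vertical axis) with 95% counting intervals, for 8 genes of chromosome 17 in the gated populations of SC (left panel) and IP (right panel) where at least 10 UMIs were counted, and 2 intervals run past the axis. H2-D1 lies between 0.70 and 1.07 in all of them, and Hspa1a is far below 0 in the SC populations drawn and near 0 in IP members.

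In IP, 10 WT and 11 KO members were compared. Of 578 genes with at least 50 UMIs, 15 (2.6%) were at least 2-fold higher in KO and 24 (4.15%) lower, with a median of 0.01, and with median-of-ratios scaling the counts were 21 and 19. Il7r gave 453 CPM in WT IP and 1091 in KO IP, a ratio of 1.25 (0.72 to 1.85). The Il7r ratio was 1.49 (1.02 to 1.98) in IP CD4 T cells without Lef1 or Ccr7 and -0.61 in IP naive CD8 T cells. All of these come from the same IP libraries, and the KO IP sum of naive CD8 T cells rests largely on 1 cell. Ctla2a, a cathepsin inhibitor, had a ratio of 2.18 (1.35 to 3.24), the phospholipid flippase Atp10a 2.04 and Ly6a, which encodes Sca-1, 1.79 (0.90 to 2.92). H2-D1 was at 1.01 (0.73 to 1.30).

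Lower in KO IP were Ccl5 at -1.60 (-2.10 to -1.14), H2-Q7 at -1.43 (-2.05 to -0.85), the chromatin remodeller Chd2 at -1.50 and the T cell adaptor Fyb at -1.27. The 4 farthest below 0 were stromal genes. Mgp was at least 49.5-fold lower, with 100 of its 101 WT UMIs in 1 cell, Col3a1 was at -6.34, with 81 of 82 UMIs in 1 cell, Gsn at -4.60 and Dcn at -4.42. Genes tested in both depots numbered 576. Of these, 2 were at least 2-fold higher in KO in both, out of 8 in SC and 15 in IP, 1 was lower in both, out of 4 and 22, and 4 passed in opposite directions.

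IP and SC members were compared within each genotype, and the comparisons share libraries with those of genotype. In WT, 327 of 3059 tested genes (10.7%) were at least 2-fold higher in IP and 286 (9.35%) lower, with a median of 0.06. In KO, 463 of 4661 (9.93%) were higher and 532 (11.4%) lower, again with a median of 0.06. Of 3040 genes tested in both genotypes, 93 were higher in IP in both (of 323 in WT and 245 in KO) and 54 lower in both (of 278 and 251), while 21 passed in opposite directions.

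Of 27 effector and memory genes, 13 in WT and 15 in KO had the 50 UMIs needed, and all of these were at least 2-fold higher in IP members. Genes low in SC could reach 50 UMIs only with those of IP, as Il18r1 and S100a6 did in WT, so the filter partly fixed these counts and they support nothing. S100a4, with 82 UMIs in WT SC and 212 in KO SC, passed through SC alone with all members. In WT SC, 45 of the 82 UMIs lay in 1 cell. Without the deep cells WT SC held 37, under the 50 needed, and KO SC held 191. S100a4 had a ratio of 3.05 (2.53 to 3.55) in WT and 3.11 (2.76 to 3.44) in KO. S100a6 had 4.48 (3.90 to 5.09) and 2.83 (2.47 to 3.18). Without the deep cells these ratios were 3.92 and 3.12 for S100a4 and 4.21 and 4.02 for S100a6. Il18r1, the interleukin 18 receptor, was at 4.01 and 3.05, and the giant scaffold protein Ahnak at 3.42 and 3.15. Ccl5, a chemokine of effector T cells, gave 2.22, 37.5, 1501 and 493 CPM. It had ratios of 9.09 and 3.72, and a UMI in 1, 5, 4 and 2 members of the 4 libraries, so this level lay in a minority of cells.

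Naive genes were lower in IP in part. Among reported naive genes 5 of 11 were at least 2-fold lower in WT (Dapl1, Nsg2, Rflnb, Igfbp4 and Actn1), with a median of -0.95 that stayed at -0.95 with genes at 0 set at the floor. In KO 7 of 13 were lower (Ramp1, Dapl1, Gm14085, Nsg2, Rflnb, Igfbp4 and Ly6c1), with a median of -1.12, or -0.57 with genes at 0 set at the floor. Klf2 gave 894 CPM in WT SC and 648 in KO SC against 414 and 237 in IP, and was past the fold in both genotypes. The other quiescence genes past it were Slfn2 in WT and Foxp1 in KO, lower, and Btg2 in WT, higher. Tcf7 gave 391, 326, 362 and 290 CPM and S1pr1 304, 271, 298 and 194, and neither passed the fold.

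Among 10 tested homing genes 4 were at least 2-fold higher in IP in WT (Cxcr4, Itga4, Itgal and Itgb7) and 1 in KO, Itga4, the integrin alpha 4 chain. Of 16 survival genes 5 were higher and 1 lower in WT and 4 higher and 2 lower in KO, with medians of 0.31 and 0.14. Bcl2 and Il2rb were higher in both, Il6st was lower in both and Ifngr2 was lower in KO. Cd6 was higher in both genotypes, Zap70 in WT, and Rasgrp1, Thy1 and Lcp2 in KO, while Cd27 was lower in KO. Of the genes farthest above 0 in KO that were no list member, Ctla2a stood at 4.60, Furin at 3.79, Cdk6 at 3.63, Atp10a at 3.56 and Lamc1 at 3.53. Among ranked genes the intervals farthest below 0 there were those of Col3a1, Gsn, Myb, Hist1h1b, Dusp10, Itm2a, Igfbp4, Rgs10, Col1a1 and Plcl1. The transcription factor Myb had 182 UMIs in 84 SC members and 0 in IP, at least 3.69-fold lower. Of the others, Itm2a was at -2.81, Igfbp4 at -2.63, Dusp10 at -2.10 and Rgs10 at -2.03, whereas the Col3a1, Gsn, Hist1h1b and Col1a1 UMIs of SC lay mostly in 1 cell. In WT the ranked genes whose intervals lay farthest below 0 were Hspa1a at -3.13 and Hspa1b at -3.15. After them came Dapl1, at least 4.60-fold lower, Hist1h1b at -3.62, Pclaf, at least 3.66-fold lower, and Stmn1 at -3.45. The others were Nsg2, Cxcl10, Myb and Patj, which were at 0 in WT IP. In WT SC, 1 cell held 142 of 215 Hist1h1b UMIs, 1 held 84 of 191 Stmn1 UMIs and 1 held 79 of 120 Cxcl10 UMIs. All 128 Pclaf UMIs lay in 2 cells. Without the deep cells Hist1h1b was at 1.69, Stmn1 at -2.17 and Cxcl10 at -0.18. The ranks of Hist1h1b, Pclaf and Cxcl10 thus rested on few SC cells.

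Transcripts of other cell types moved with the libraries. The stromal list summed to 36.6, 1165, 5086 and 132 CPM in members, with 2 of 10 WT IP members holding at least 2 UMIs. Haemoglobin genes summed to 174, 369, 220 and 35.2 CPM. The macrophage list was at 4.44, 39.6, 142 and 8.80 CPM, with C1qa, C1qb, C1qc and Adgre1 at 0 in all members. A list of lymph node stroma was at 1.11, 1.07, 38.8 and 0 CPM. The NK and gamma delta T cell list was at 5.55, 43.9, 12.9 and 52.8 CPM. The B cell list was at 109, 105, 51.8 and 52.8 CPM, with Cd79a at 0 by the gate. The endothelial and mural list was at 213, 227, 90.6 and 96.7 CPM with Cdh5, Tie1, Egfl7 and Acta2 at 0. The stromal list was high in KO SC and WT IP, where the same UMIs also put stromal genes at the head of a ranking. Its part in other values was not tested. The effector and memory list was at 1574, 1922, 9356 and 9033 CPM.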

How the data were processed

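Single-cell suspensions of SC and IP AT from WT and KO mice were profiled with 10x Genomics 3′ v3 chemistry, 1 library per genotype and depot. According to the file headers, the authors' UMI counts came from Cell Ranger 7.0.0, and the submitters' processing notes name STAR 2.6 and mm10; the deposited counts were raw and not normalized. Whether introns were counted was not given in the sources used here.

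Barcodes under 200 genes or above 25% mitochondrial UMIs were dropped, and populations were gated on UMIs as described. The members and gene lists were chosen with earlier results of these data known. Counts were summed per population and library. Populations were compared with edgeR 4.0.16 (quasi-likelihood test, TMM scaling, filterByExpr, library block, Benjamini-Hochberg adjusted p below 0.05) in libraries with at least 10 cells of both, given 3 such libraries. Each test was tested on simulated data. Genotypes and depots were compared as log2 ratios of CPM after adding 0.5 UMI, with exact conditional binomial intervals, for genes with at least 50 UMIs in both together, and a fold of 2 was used for counts. Intervals and floors (3 UMIs) cover counting error only. Genes of the gate were left out of every test and ranking.

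Genes were named by rule: list genes past the test or fold with a few others per list, Tert and the reporters, the 10 called genes with the largest difference each way at a mean of at least 50 CPM, and the 10 genes each way whose interval bound nearest 0 lay farthest from it. Rankings left out ribosomal protein, mitochondrial, haemoglobin, antigen receptor, sex-linked control and unnamed transcripts. Gene positions came from GENCODE vM21 (GRCm38), which held 32158 of the 32290 feature identifiers. DESeq2 1.42.0, Scrublet in scanpy 1.11.5, R 4.3.3 and Python 3.11.15 were also used. Alternatives were DESeq2, other scaling, other filters, other gates, doublet removal, thinning, and leaving out each library. A few genes are not reported here.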

Additional observations from a re-analysis of the deposited data

Results flagged for a closer look

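Among the gated CD4 T cells 4 genes passed a 2-fold difference between KO and WT in opposite directions in the 2 depots, and the difference between depots was not tested. Ccl5 had a log2 ratio of 3.77 in SC and -1.60 in IP. Col3a1 was at 7.15 and -6.34, Dcn at 4.73 and -4.42, and Gsn at 3.75 and -4.60. For Col3a1, 441 of 442 KO SC UMIs and 81 of 82 WT IP UMIs each came from 1 cell, and for Ccl5 66 of 70 KO SC UMIs came from 1 cell.

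A second signal came from T cells that the gate left out. Cells with the Lef1 and Ccr7 threshold met and neither Cd4 nor CD8 UMIs had a Cd40lg UMI in 38.0% of cases in WT SC and 31.7% in KO SC, above the 2.31% and 3.14% of cells with CD8 UMIs only.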

How the results depend on the processing

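Each genotype and depot had 1 library, so differences between them were not replicated, and the IP libraries held 10 and 11 members. Between genotypes or depots no paired analysis was possible, because each group had a single library and the labels gave no pairing of libraries. The population tests did pair populations within a library. Leaving out deep cells, using SC alone, splitting by GFPcds and removing shared barcodes were chosen after seeing the data. In the summaries 135 values moved little and 47 moved past their limit.

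With cells thinned to 2000 UMIs before gating, the shares of kept barcodes were 3.37%, 4.35%, 0.470% and 0.418%. Against naive CD8 T cells, the genes higher and lower numbered 224 and 159 with no filter, 19 and 26 without the library block, 115 and 95 without deep cells, and 564 and 645 in SC alone. Leaving out each library gave 22 to 289 higher and 20 to 335 lower, the highest without KO IP and the lowest without KO SC. Against CD4 T cells without Lef1 or Ccr7 they numbered 6 and 12 with DESeq2, 28 and 91 with no filter, and 0 to 13 and 0 to 33 with a library left out, highest without KO SC.

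For KO against WT in SC, the counts past the fold were 37 and 49 at 100 UMIs or more, 270 and 389 at 20, 54 and 75 without deep cells, and 81 lower in members without GFPcds. In IP they were 3 and 7 at 100 UMIs, 107 and 128 at 20, and 9 higher with 2 UMIs added. For IP against SC they were 126 and 122 at 100 UMIs and 830 and 740 at 20 in WT, 243 and 228 and 1092 and 1110 in KO, with 114 (WT) and 149 (KO) lower when 2 UMIs were added. The cause was not tested, beyond fewer or more genes entering.

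Single genes reversed 16 times. In SC these were Gsn (-0.20) and Tnfrsf4 (0.23) without deep cells, Hbb-bs (-1.20), S100a6 (-0.41), Themis (0.12) and Tnfrsf4 (0.74) without GFPcds, and Jun (0.11) with it. For IP against SC in WT they were Mki67 (0.62), Tnfrsf4 (0.083) and Tyms (0.56) with cells weighted equally and Tnfrsf4 (0.19) without deep cells. In KO they were Col1a2 (0.27), Dcn (0.53), Lum (0.79), Mki67 (0.12) and Sparc (0.22) with cells weighted equally. Against naive CD8 T cells 46 gene values fell short of the threshold under an alternative. Gates at 3 UMIs or on thinned cells left 2 libraries for the test against naive CD8 T cells. Against CD4 T cells without Lef1 or Ccr7 they left 1 and 2 libraries. These tests were not run, nor was doublet removal for CD4 T cells without Lef1 or Ccr7.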
